A study of Caenorhabditis elegans with 9 samples.

Results

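The cyclins and cyclin-dependent kinases that drive the core cell division cycle of Caenorhabditis elegans, with 1 of their inhibitors, were followed across 9 expression arrays. The 9 genes are the kinases cdk-1, cdk-2 and cdk-4, the cyclins cya-1, cyb-1, cyb-3, cyd-1 and cye-1, and the inhibitor cki-1. They were taken by name: every probe set whose platform annotation names 1 of these genes and no other was kept, whatever its signal. This gave 16 of the 22625 probe sets on the array, and 9 of the 17138 genes that its annotation names alone on a probe set. Of the 16 probe sets, 14 were bright enough to be tested and 2 were not, the only probe set of cdk-2 and 1 of the pair for cyd-1.

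The arrays were hybridised with total RNA from whole animals, in 3 groups of 3 replicate populations. N2, the wild-type laboratory strain without a transgene, was the control. The group called aex-3 SUMO here is the strain JS62, which carries aex-3::his-SUMO-1, and the group called myo-4 SUMO is the strain JS63, which carries myo-4::his-SUMO-1; both make a His-tagged form of SUMO-1, a small protein that is joined to other proteins and alters what they do. All groups were fed OP50 bacteria, synchronised by bleaching and labelled as larvae of the first stage. The aex-3 promoter is known for activity in neurons, and myo-4 is another name for unc-54, the main myosin heavy chain of body wall muscle. Each transgene is represented by 1 named strain, so a strain and its transgene cannot be told apart, and no control that carries an array or insertion without SUMO-1 is among the labels.

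A cyclin-dependent kinase is active only when bound to a cyclin, and the cyclins are made and destroyed in turn as a cell moves through its cycle. In the worm, CDK-4 with CYD-1 drives cells out of G1, the growth phase, CDK-2 with CYE-1 starts DNA synthesis, and CDK-1 with the A and B type cyclins brings about mitosis. CKI-1, of the same family as the human Cip and Kip inhibitors, holds cells in G1, and it is known for keeping blast cells of young larvae at rest. Messages of mitotic cyclins are also stored in oocytes and early embryos.

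Against N2, both transgenic lines had more RNA of the mitotic genes cdk-1, cya-1, cyb-1 and cyb-3 and of cye-1, and less of the inhibitor cki-1. For the dim cye-1 in aex-3 SUMO, the arrays overlapped N2 and the call was lost in 7 alternative settings. In aex-3 SUMO, cdk-1 rose from a signal of 368 ± 64.4 to 684 ± 38.5 (mean ± SD, n = 3 each), and the brighter cki-1 probe set fell from 177 ± 16.8 to 73.6 ± 9.18. In myo-4 SUMO the same probe sets read 632 ± 29.9 and 83.0 ± 8.27. The G1 cyclin cyd-1 fell in aex-3 SUMO, and in myo-4 SUMO it did not pass the test. No probe set of the kinase cdk-4 passed in either line. The RNA came from whole animals, so fewer cells of a type and less RNA per cell cannot be told apart in any of these values.

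In aex-3 SUMO against N2, 9 of the 14 tested probe sets were called higher and 3 lower at an adjusted p under 0.05. Over all 14204 probe sets tested, 48.1% were called, 24.1% higher and 24% lower. The 9 higher probe sets were all those of 5 genes. In myo-4 SUMO against N2, 9 of 14 were called higher and 2 lower, and over all probe sets 44.4% were called, 24% higher and 20.3% lower. The median log2 fold change of the 14 was 0.46 in aex-3 SUMO and 0.58 in myo-4 SUMO, beside -0.04 and 0.0039 over all probe sets tested. All 3 arrays of the line lay outside the range of N2 for 10 of 14 probe sets in aex-3 SUMO, 7 above and 3 below, and for 11 of 14 in myo-4 SUMO, 9 of them above. Over all probe sets 56.4% had such arrays in aex-3 SUMO, 27.4% above and 29% below, and 52.3% in myo-4 SUMO, 27% above and the rest below. The comparisons with N2 share the N2 arrays and are not independent of each other.

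**Figure D1:**
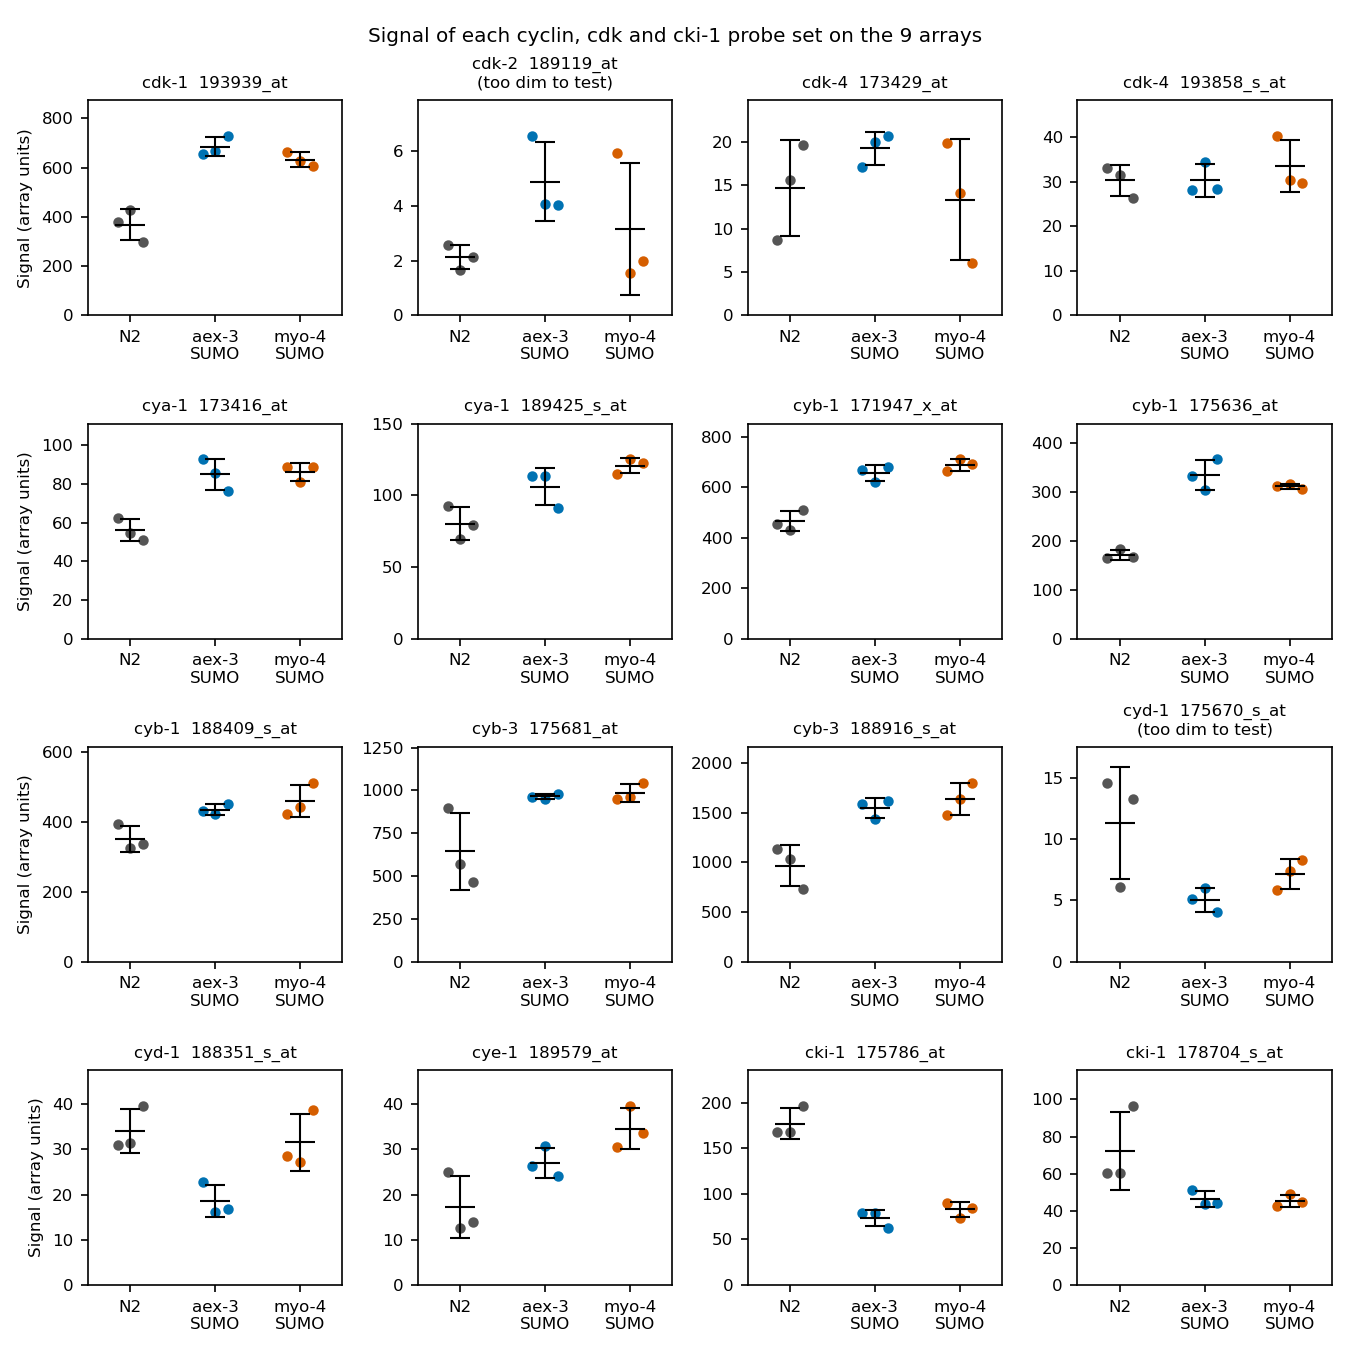
Signal of each probe set of the 9 genes on each array, in array units on linear axes that start at 0, with 1 panel per probe set. Points are the 3 arrays of a group, and bars are the mean ± SD. The cdk-1 arrays of the transgenic lines lie between 604 and 728, all above the N2 arrays at 299 to 426, while those of the brighter cki-1 probe set lie between 62.99 and 90.2, all below N2.

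**Figure D2:**
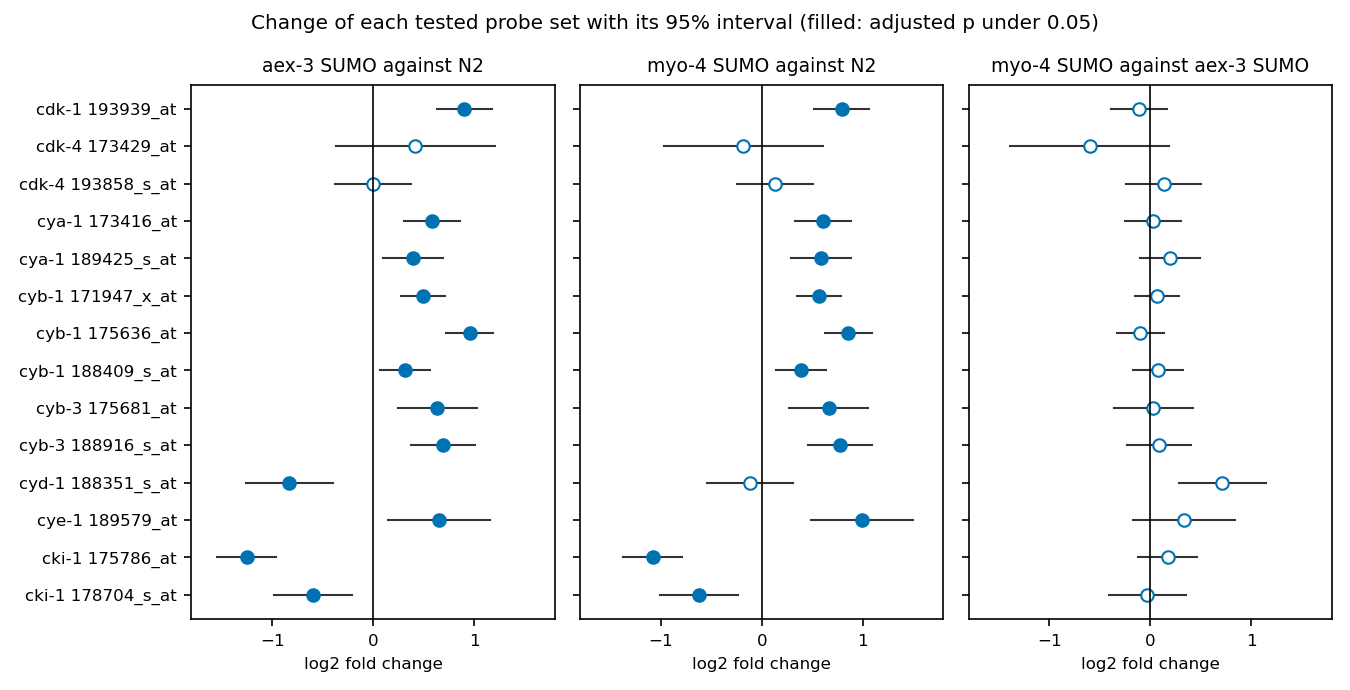
Log2 fold change against N2 of each tested probe set of the 9 genes in both lines, and of myo-4 SUMO against aex-3 SUMO, each with its 95% interval from limma. Filled points passed an adjusted p of 0.05, and no point is filled between the lines. The values run from -1.25 for cki-1 to 0.96 for cyb-1 in aex-3 SUMO, and from -1.08 for cki-1 to 0.99 for cye-1 in myo-4 SUMO.

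The G1 genes come first in the cycle. cyd-1 encodes the D type cyclin that partners CDK-4. Its brighter probe set read 31.0, 31.4 and 39.6 in N2, 22.7, 16.1 and 16.8 in aex-3 SUMO, and 28.6, 27.1 and 38.8 in myo-4 SUMO. All aex-3 SUMO arrays were below every other array, and the myo-4 SUMO arrays overlapped N2. The log2 fold change was -0.83 ± 0.20 (SE) in aex-3 SUMO, with an adjusted p of 0.0045 in limma, and -0.11 ± 0.20 in myo-4 SUMO, with an adjusted p of 0.657. With a pseudocount of 16 the aex-3 SUMO value of cyd-1 was -0.54, and the call was kept. The myo-4 SUMO value turned to 0.01 under quantile normalization and to 0.03 when arrays were centred on their medians. The other cyd-1 probe set was too dim to be tested and read 14.6, 6.12 and 13.2 in N2, 5.09, 6.03 and 4.06 in aex-3 SUMO, and 5.85, 7.40 and 8.27 in myo-4 SUMO. Its aex-3 SUMO arrays were below its N2 arrays too. With no filter on dim probe sets its adjusted p was 0.0641 in aex-3 SUMO, at a log2 fold change of -0.89.

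cdk-4 encodes the kinase that CYD-1 activates. Its brighter probe set, whose annotation lists cdk-4 under more than 1 gene identifier, read 32.9, 31.4 and 26.4 in N2, 28.1, 34.4 and 28.2 in aex-3 SUMO, and 40.2, 30.4 and 29.8 in myo-4 SUMO. The 3 groups overlapped. In aex-3 SUMO the 95% interval of its log2 fold change ran from -0.37 to 0.37. The dimmer probe set of cdk-4 exceeded the brightness limit on 5 arrays and read 8.72, 15.6 and 19.7 in N2, 17.1, 20.1 and 20.7 in aex-3 SUMO, and 19.96, 14.1 and 6.01 in myo-4 SUMO. These groups overlapped as well, with log2 fold changes of 0.42 ± 0.36 in aex-3 SUMO (adjusted p = 0.358) and -0.18 ± 0.36 in myo-4 SUMO (adjusted p = 0.698). The cdk-4 probe sets had a correlation of 0.05 with each other over the 9 arrays.

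cki-1 encodes the inhibitor that holds cells in G1. Its brighter probe set read 167, 167 and 196 in N2, 79.1, 78.7 and 62.99 in aex-3 SUMO, and 90.2, 74.0 and 84.7 in myo-4 SUMO. Every transgenic array was below every N2 array. The log2 fold change was -1.25 ± 0.13 in aex-3 SUMO (adjusted p = 3.91e-05) and -1.08 ± 0.13 in myo-4 SUMO (adjusted p = 8.93e-05). These were the strongest decreases among the 14 probe sets in either line, and they held under all 18 alternative settings, at -1.33 to -1.03 and -1.19 to -0.93. The dimmer probe set of cki-1 read 60.2, 60.4 and 96.5 in N2, 51.1, 43.8 and 44.0 in aex-3 SUMO, and 42.4, 49.05 and 44.5 in myo-4 SUMO. Its groups did not overlap either, though N2 replicate 3 stood well above the other N2 arrays. It fell by 0.59 ± 0.18 on the log2 scale in aex-3 SUMO (adjusted p = 0.015) and by 0.62 ± 0.18 in myo-4 SUMO (adjusted p = 0.0129). This call in aex-3 SUMO was lost in 3 settings, when arrays were centred on their medians, without N2 replicate 3 and without aex-3 SUMO replicate 3. Without N2 replicate 3 the log2 fold change was -0.37 (adjusted p = 0.0516), and under the centring -0.38 (adjusted p = 0.0888).

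cki-2, the neighbour of cki-1 with no protein-coding gene between them, encodes the other inhibitor of this family and was looked up after the values of cki-1 were seen. Its brighter probe set read 118, 124 and 121 in N2, 174, 154 and 156 in aex-3 SUMO, and 179.7, 161 and 178 in myo-4 SUMO. All transgenic arrays were above N2, opposite to cki-1. The log2 fold change was 0.40 in aex-3 SUMO (adjusted p = 0.00861) and 0.51 in myo-4 SUMO (adjusted p = 0.00262). The dimmer cki-2 probe set overlapped between the groups and did not pass, at 0.43 (adjusted p = 0.0704) and 0.38 (adjusted p = 0.115). By their names on this array, both cki-2 probe sets are of a kind that may also detect similar transcripts.

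cye-1 encodes the E type cyclin that starts DNA synthesis. Its only probe set read 25.07, 12.7 and 13.9 in N2, 26.2, 30.7 and 24.1 in aex-3 SUMO, and 30.6, 39.6 and 33.5 in myo-4 SUMO. The myo-4 SUMO arrays were all above N2, whereas aex-3 SUMO replicate 3 lay below N2 replicate 1. The log2 fold change was 0.99 ± 0.23 in myo-4 SUMO (adjusted p = 0.00449), a rise that kept its call in all settings tried. In aex-3 SUMO it was 0.66 ± 0.23 (adjusted p = 0.0341). With a pseudocount of 16 the log2 fold changes of cye-1 were 0.62 and 0.39. The aex-3 SUMO call was lost in 7 settings, which were no filter, only the groups compared, and leaving out any 1 aex-3 SUMO array, N2 replicate 2 or N2 replicate 3. Without N2 replicate 2 the log2 fold change of cye-1 was 0.49 (adjusted p = 0.12). For cdk-2, the kinase that CYE-1 activates, the only probe set lay between percentiles 9.06 and 26.2 of its arrays and was not tested. It read 2.58, 1.67 and 2.14 in N2, 6.56, 4.07 and 4.04 in aex-3 SUMO, and 5.94, 1.54 and 1.99 in myo-4 SUMO. The aex-3 SUMO arrays were above N2 and the myo-4 SUMO arrays overlapped it, at signals where no order can be read with confidence.

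cya-1 encodes the A type cyclin, which acts with CDK-1 from DNA synthesis into early mitosis. Its dimmer probe set read 62.5, 54.8 and 51.2 in N2, 92.7, 85.7 and 76.3 in aex-3 SUMO, and 88.99, 81.0 and 88.6 in myo-4 SUMO. All transgenic arrays were above N2. The log2 fold change was 0.58 ± 0.13 in aex-3 SUMO (adjusted p = 0.00273) and 0.61 ± 0.13 in myo-4 SUMO (adjusted p = 0.00238). The brighter probe set of cya-1 read 92.3, 69.3 and 79.0 in N2, 114, 113.2 and 90.9 in aex-3 SUMO, and 115, 125 and 122 in myo-4 SUMO. Here aex-3 SUMO replicate 3 fell just inside the N2 range, and the myo-4 SUMO arrays were all above it. The rise was 0.59 in myo-4 SUMO (adjusted p = 0.00434) and 0.40 in aex-3 SUMO (adjusted p = 0.0302). For this probe set the aex-3 SUMO call was lost in 5 settings, including those without N2 replicate 2, N2 replicate 3, aex-3 SUMO replicate 1 or aex-3 SUMO replicate 2, with an adjusted p of up to 0.111 for cya-1.

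cdk-1 encodes the kinase of mitosis, the worm counterpart of yeast Cdc2. Its signal was 379.8, 426 and 299 in N2, 656, 667 and 728 in aex-3 SUMO, and 664, 627 and 604 in myo-4 SUMO. The lowest transgenic array was above the highest N2 array. The log2 fold change was 0.90 ± 0.13 in aex-3 SUMO (adjusted p = 0.00017) and 0.79 ± 0.13 in myo-4 SUMO (adjusted p = 0.000428). Under the 18 alternative settings it ran from 0.76 to 1.12 and from 0.65 to 0.94, always with a call.

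cyb-1 and cyb-3 encode the B type cyclins that take cells through mitosis with CDK-1. The dimmest of the 3 cyb-1 probe sets read 165, 183 and 167 in N2, 334, 305 and 367 in aex-3 SUMO, and 312, 317 and 307 in myo-4 SUMO. The groups were far apart, with a log2 fold change of 0.96 ± 0.11 in aex-3 SUMO (adjusted p = 4.98e-05) and 0.86 ± 0.11 in myo-4 SUMO (adjusted p = 9.2e-05). The brightest cyb-1 probe set read 455, 431 and 511 in N2, 669, 621 and 679.9 in aex-3 SUMO, and 664, 709.9 and 692 in myo-4 SUMO. All its transgenic arrays were above N2 too, by 0.50 ± 0.10 in aex-3 SUMO (adjusted p = 0.00174) and 0.57 ± 0.10 in myo-4 SUMO (adjusted p = 0.000877). The cyb-1 probe set of middle brightness read 393, 324 and 335 in N2, 431, 422 and 452 in aex-3 SUMO, and 423, 444 and 512 in myo-4 SUMO. It gave the smallest rises of the cyb-1 probe sets, 0.31 ± 0.11 in aex-3 SUMO (adjusted p = 0.038) and 0.39 ± 0.11 in myo-4 SUMO (adjusted p = 0.0153). The former call was lost in 10 settings, among them leaving out N2 replicate 2, N2 replicate 3, any 1 aex-3 SUMO array or myo-4 SUMO replicate 2, with an adjusted p of up to 0.119 for cyb-1. The latter call was lost only without myo-4 SUMO replicate 3, with an adjusted p of 0.0709. The cyb-1 probe sets thus went the same way with sizes that differed. By their names on this array, the brightest and the middle cyb-1 probe sets, 1 of each pair for cya-1, cyb-3, cki-1 and cdk-4, and both for cyd-1 are of kinds that may also detect similar transcripts.

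For cyb-3, the brighter probe set read 1137, 1036 and 735 in N2, 1590.3, 1435 and 1618 in aex-3 SUMO, and 1482, 1638 and 1805 in myo-4 SUMO. The groups did not overlap, and the rise was 0.70 ± 0.15 in aex-3 SUMO (adjusted p = 0.00214) and 0.78 ± 0.15 in myo-4 SUMO (adjusted p = 0.00121). The dimmer one read 898, 570.2 and 465 in N2, 961, 953 and 981 in aex-3 SUMO, and 948, 962 and 1046 in myo-4 SUMO. N2 replicate 1 came close to the transgenic arrays while the other N2 arrays lay far below. The rise was 0.64 ± 0.18 in aex-3 SUMO (adjusted p = 0.0116) and 0.67 ± 0.18 in myo-4 SUMO (adjusted p = 0.0101).

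Between the lines, none of the 14 probe sets differed at an adjusted p under 0.05 in limma, and 1, that of cyd-1, had an unadjusted p under 0.05. Of all probe sets 0.239% were called, 0.183% higher and 0.0563% lower in myo-4 SUMO. The arrays did not overlap for 2 of the 14 probe sets, the brighter ones of cyd-1 and cya-1, both higher in myo-4 SUMO, beside 20.8% of all probe sets, 12.6% higher and 8.24% lower. For cyd-1 the difference was 0.71 ± 0.20 on the log2 scale, higher in myo-4 SUMO on 3 of 3 arrays, with a 95% interval of 0.29 to 1.14 and an adjusted p of 0.215. Over the alternative settings its adjusted p ran from 0.1 to 0.717. For cdk-1 the interval of the difference was -0.39 to 0.16, for the brighter cki-1 probe set -0.12 to 0.46, and for cye-1 -0.17 to 0.84. These intervals give the range of differences compatible with the values at 3 arrays per group. The absence of a call does not show that the lines have equal signals.

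The other cyclins and cyclin-dependent kinases named by the array also held upward calls. Of 17 tested genes, 11 rose and 0 fell in limma in each line, and at an unadjusted p under 0.05 there were 12 higher and 0 lower. Their median log2 fold change was 0.43 in aex-3 SUMO and 0.46 in myo-4 SUMO, beside -0.04 and -0.0045 over the 10788 genes tested. Of all those genes, 24.6% and 24.2% were called higher, and 24.6% and 21.1% lower. Without aex-3 SUMO replicate 1 or aex-3 SUMO replicate 2, 7 genes of this list rose in aex-3 SUMO. cdk-7, which activates other cyclin-dependent kinases and acts in transcription, read 120.4 ± 27.4 in N2 and rose in both lines, with 279.7 ± 8.67 in aex-3 SUMO and 212 ± 26.9 in myo-4 SUMO. Those are log2 fold changes of 1.23 (adjusted p = 7.83e-05) and 0.82 (adjusted p = 0.00101). The B type cyclins cyb-2.1 and cyb-2.2 rose by 1.16 and 1.096 in aex-3 SUMO and by 0.92 and 0.95 in myo-4 SUMO. cdk-5, a kinase known for its work in neurons, rose by 0.67 and 0.61. The probe sets of cdk-7, cyb-2.1, cyb-2.2 and cdk-5 are, by their names, of kinds that may also detect similar transcripts.

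Another list held regulators of cyclin-dependent kinases and genes that act beside these kinases, such as lin-35 and dpl-1. In it, 9 of 17 tested genes rose in aex-3 SUMO and 0 fell, with 10 higher and 0 lower at an unadjusted p under 0.05. In myo-4 SUMO 10 rose and 1 fell. Over all genes tested, 24.6% were called higher and 24.6% lower in aex-3 SUMO, and 24.2% and 21.1% in myo-4 SUMO. The phosphatase gene cdc-25.3, of the family that switches these kinases on, rose by 1.52 in aex-3 SUMO (adjusted p = 0.000231) and by 1.09 in myo-4 SUMO (adjusted p = 0.00208). Another gene of that family, cdc-25.1, rose by 0.87 (adjusted p = 0.00166) and by 0.97 (adjusted p = 0.000972). lin-35, the worm retinoblastoma gene, rose by 0.72 and 0.69, and its partner dpl-1 by 0.69 and 0.80. The 1 gene that fell in myo-4 SUMO was skr-1, of the ubiquitin ligases that mark cell cycle proteins for destruction, at -0.29 (adjusted p = 0.044), and that call was lost in 11 settings. skr-2, also of this list, rose by 0.86 in aex-3 SUMO (adjusted p = 7.38e-05) and by 0.58 in myo-4 SUMO (adjusted p = 0.000862). By their names, the probe sets of skr-1, cdc-25.1, cdc-25.3, lin-35 and dpl-1 are of kinds that may also detect similar transcripts. When arrays were centred on their medians, 14 genes of this list rose in aex-3 SUMO.

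Further lists of cell cycle genes also held more calls upward than downward. The shares over all genes were 24.6% higher and 24.6% lower in aex-3 SUMO, and 24.2% and 21.1% in myo-4 SUMO. Among brighter probe sets, above the 60th percentile on 3 or more arrays, 33.3% were higher and 24.4% lower in aex-3 SUMO. In myo-4 SUMO 33.5% of those probe sets were higher and 22.9% lower. Of 22 genes of the anaphase-promoting complex and the spindle checkpoint, 16 rose in aex-3 SUMO and 14 in myo-4 SUMO, and 0 fell in limma or at an unadjusted p under 0.05. bub-1, a checkpoint kinase, rose by 0.83 in aex-3 SUMO and 0.84 in myo-4 SUMO. Of 41 genes for mitotic kinases, centrosomes, kinetochores and cytokinesis, 30 rose and 1 fell in aex-3 SUMO, and 35 rose and 1 fell in myo-4 SUMO. zen-4, a kinesin of the central spindle, rose by 0.92 and 1.05, and hcp-3, the centromeric histone, by 0.92 and 0.83. The gene that fell in both was cyk-1, a formin needed for cytokinesis, at -0.98 (adjusted p = 0.000594) and -0.61 (adjusted p = 0.011). By name, the probe sets of zen-4, hcp-3 and cyk-1 may also detect similar transcripts. Without aex-3 SUMO replicate 3, 20 genes of this list rose in aex-3 SUMO. Of 31 genes of DNA synthesis, 25 rose in aex-3 SUMO and 26 in myo-4 SUMO, and again 0 fell in limma or at an unadjusted p under 0.05. The origin recognition gene orc-1 rose by 1.02 and 0.98 and orc-4 by 1.02 and 0.82. Between the lines 0 genes of these lists were called in limma, and 1 or 2 genes of each had an unadjusted p under 0.05.

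**Figure D3:**
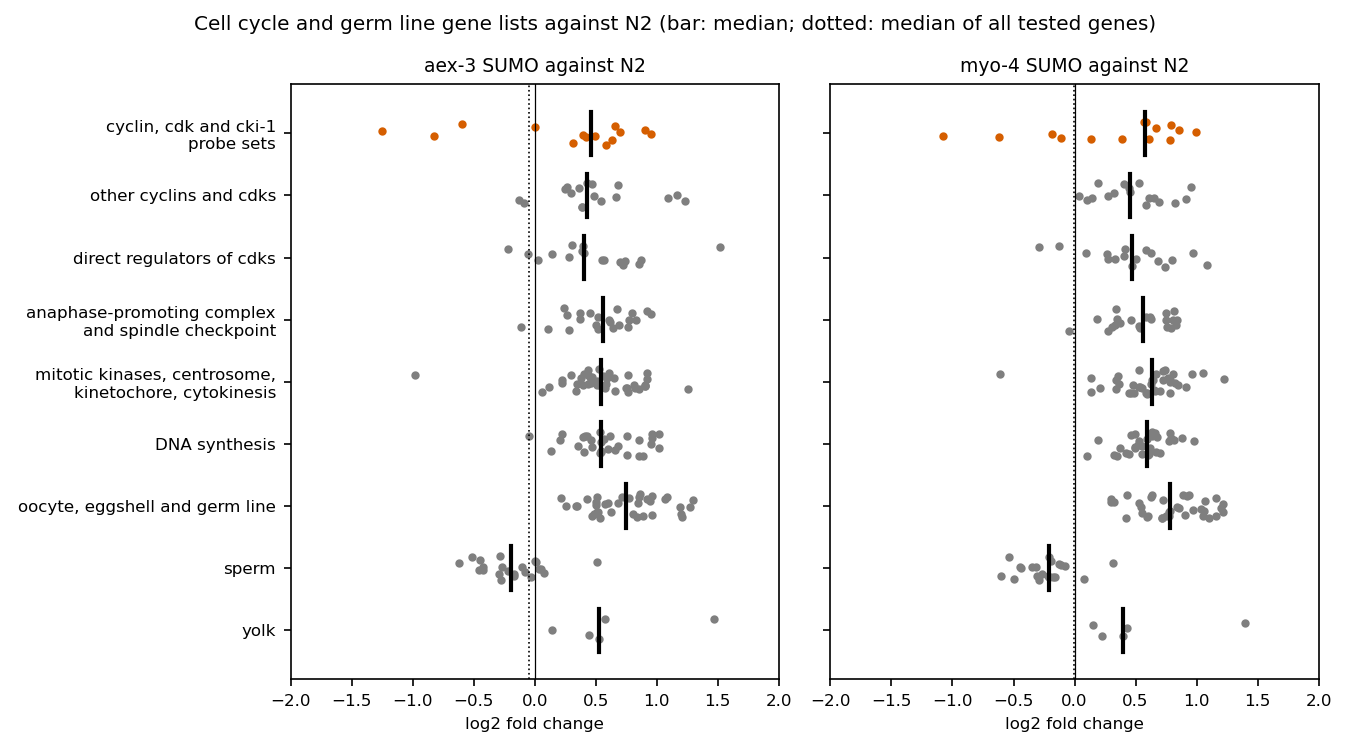
Log2 fold change against N2 in each line, with 1 point per tested probe set of the 9 genes (top row) or per tested gene of each cell cycle, oocyte, sperm and yolk list. Bars mark the median of each list and the dotted line that of all genes tested, and the list medians lie above 0 except for sperm, at -0.19 in aex-3 SUMO and -0.21 in myo-4 SUMO. The row of direct regulators also holds genes that act beside the kinases, such as lin-35 and dpl-1.

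Markers of several cell types moved with these results. Over the 10788 genes tested, 24.6% were called higher and 24.6% lower in aex-3 SUMO, and 24.2% higher and 21.1% lower in myo-4 SUMO. Of 36 genes of oocytes, eggshell and germ line, 32 rose in aex-3 SUMO and 34 in myo-4 SUMO, 0 fell in limma, and 0 were lower at an unadjusted p under 0.05. Their summed signal ranged from 15450 to 23980 on the N2 arrays, from 29300 to 31420 on those of aex-3 SUMO and from 29300 to 32340 on those of myo-4 SUMO. The summed signal of 5 yolk protein genes ranged from 11740 to 15420, from 18070 to 19720 and from 16050 to 19750 in the same order, and 4 and 3 of them rose. Of 22 sperm genes, 1 rose and 4 fell in aex-3 SUMO, and 0 rose and 5 fell in myo-4 SUMO. The lower calls are 18.2% and 22.7% of the sperm genes, near the shares over all genes. The sperm genes summed to between 37210 and 55620 in N2, 34400 and 38290 in aex-3 SUMO, and 30600 and 39090 in myo-4 SUMO. Of 15 intestine genes, 12 fell and 1 rose in each line. Of 16 genes of body wall muscle, 9 fell in aex-3 SUMO and 10 in myo-4 SUMO, and 1 rose in each. Of 13 neuron genes, 9 and 7 fell and 1 rose in each. Of 12 genes of seam and hypodermis, tissues that hold some of the larval blast cells, 5 and 4 fell and 2 rose in each. In that order again, the intestine genes summed to between 27660 and 32240, 17940 and 19460, and 15810 and 19660. The sums for the 13 seam and hypodermis genes on the array lay between 14220 and 16160, 12460 and 13590, and 11440 and 14900. The 16 neuron genes on the array summed to between 3069 and 3384, 1735 and 1991, and 1862 and 2092. Their median signal overlapped between the groups, at 73.66 to 88.59, 56.44 to 77.38 and 67.17 to 80.31. Muscle genes summed to between 24940 and 28260, 19620 and 20420, and 18270 and 21420. The median signals of the intestine, muscle, and seam and hypodermis lists were below N2 on all transgenic arrays. Early embryo genes went both ways, with 3 of 11 higher and 3 lower in aex-3 SUMO and 5 higher and 2 lower in myo-4 SUMO. The 18 of them on the array summed to between 2905 and 3290 in N2, 1627 and 1846 in aex-3 SUMO, and 1635 and 1781 in myo-4 SUMO. Their median signal did not follow the sums, at 15.8 to 19.34, 14.07 to 17.98 and 19.44 to 22.14. None of the 146 marker genes was at 0 on any array. The part of these cell types in the values of the cyclins, cdk-1 and cki-1 was not tested.

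The labels say larvae of the first stage, yet genes of oocytes, sperm, yolk and the adult cuticle were bright on all arrays. Whether all animals were of the labelled stage was not tested. On all 9 arrays the median oocyte and germ line gene stood at a percentile of 90.17 or above, the median sperm gene at 94.19 or above and the median yolk gene at 98.74 or above. Of 4 genes of the adult cuticle, 3 fell in aex-3 SUMO and 2 in myo-4 SUMO, and 0 were higher in limma at an adjusted or unadjusted p under 0.05. Their median percentile was 91.03 to 91.38 on the N2 arrays, 77.72 to 79.13 for aex-3 SUMO and 81.07 to 83.59 for myo-4 SUMO. In the same order, their summed signal was 2731 to 2908, 2392 to 2481 and 2447 to 2593. Within N2, replicate 3 had the lowest cdk-1 signal, the lowest cyb-3 signals and the lowest median of the oocyte list, at 294 beside 415 and 506 on the other arrays. The same array had the highest signals of both cki-1 probe sets in the whole set. Other genes did not all follow cdk-1 within N2. The brightest cyb-1 probe set was highest on N2 replicate 3, at 511 beside 455 and 431. The dimmer cya-1 probe set was lowest there, while the brighter one, the other cyb-1 probe sets and cye-1 were not.

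**Figure D4:**
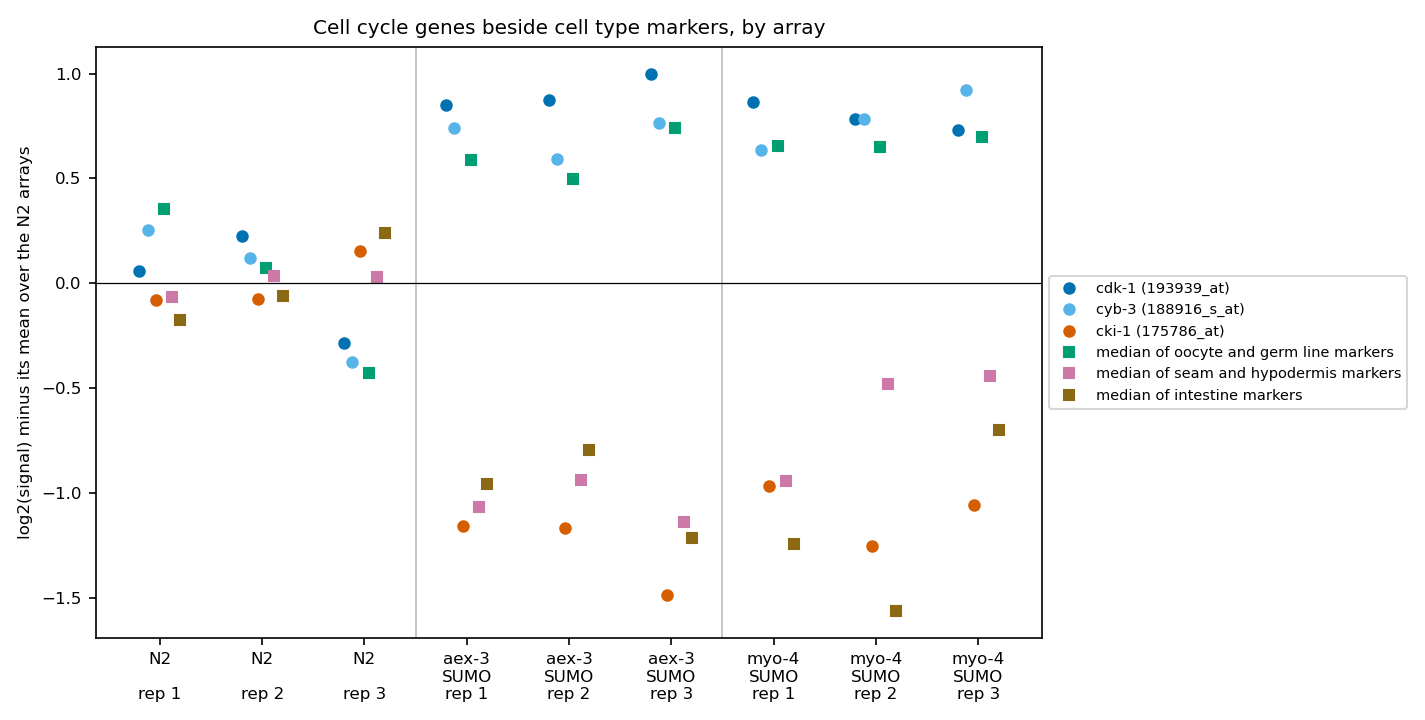
Log2 signal of cdk-1, cyb-3 and cki-1 and the median signal of 3 marker lists on each array, each minus its mean over the N2 arrays. N2 replicate 3 is lowest for cdk-1, at -0.29, and for the oocyte and germ line markers, at -0.43, and it is highest for cki-1, at 0.15.

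The genes whose pattern over the 9 arrays was most like that of cdk-1 were nars-1, coa-3, spcs-2, T12G3.6 and mpst-1, with Pearson correlations of 0.993 to 0.995 among 13446 candidate probe sets. For the brighter cki-1 probe set they were C14B9.3, F49E12.10, tag-343, Y75B12B.3 and R09H10.3, at 0.987 to 0.993. The 9 arrays fall into N2 and transgenic groups, which sets much of such a correlation. cdk-1 and the brighter cki-1 probe set had a correlation of -0.97 over all arrays and of -0.57 once each group's mean was removed. The cyb-3 probe sets kept a correlation of 0.82 after that step and the cya-1 probe sets one of 0.67, while those of cyb-1 lay between -0.14 and 0.15.

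Checks of the arrays and labels bear on all of these values. smo-1, the gene of SUMO-1 itself, read 638 ± 110 in N2, 1018 ± 60.2 in aex-3 SUMO (adjusted p = 0.00117) and 957 ± 87.6 in myo-4 SUMO (adjusted p = 0.00318). Whether its probe set detects the transgene is not known from the sources used here. The median signal of an array lay between 27.57 and 28.62 for N2 and between 23.19 and 25.71 for the lines. Over 5 control genes with a probe set at either end, the 3' signal exceeded the 5' signal by a mean log2 of 0.285 to 0.525 (N2) and 0.197 to 0.378 (the lines). Their part in the results was not tested. Centring arrays on their medians raised the median log2 fold change over all probe sets, which was -0.04 in aex-3 SUMO and became 0.18, and was 0.0039 in myo-4 SUMO and became 0.15. Higher calls then made up 71.5% of the calls for aex-3 SUMO instead of 50.1%, and 70% for myo-4 SUMO instead of 54.2%. Under that centring 9 of the 14 probe sets were still called higher in aex-3 SUMO and 2 lower.

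**Figure D5:**
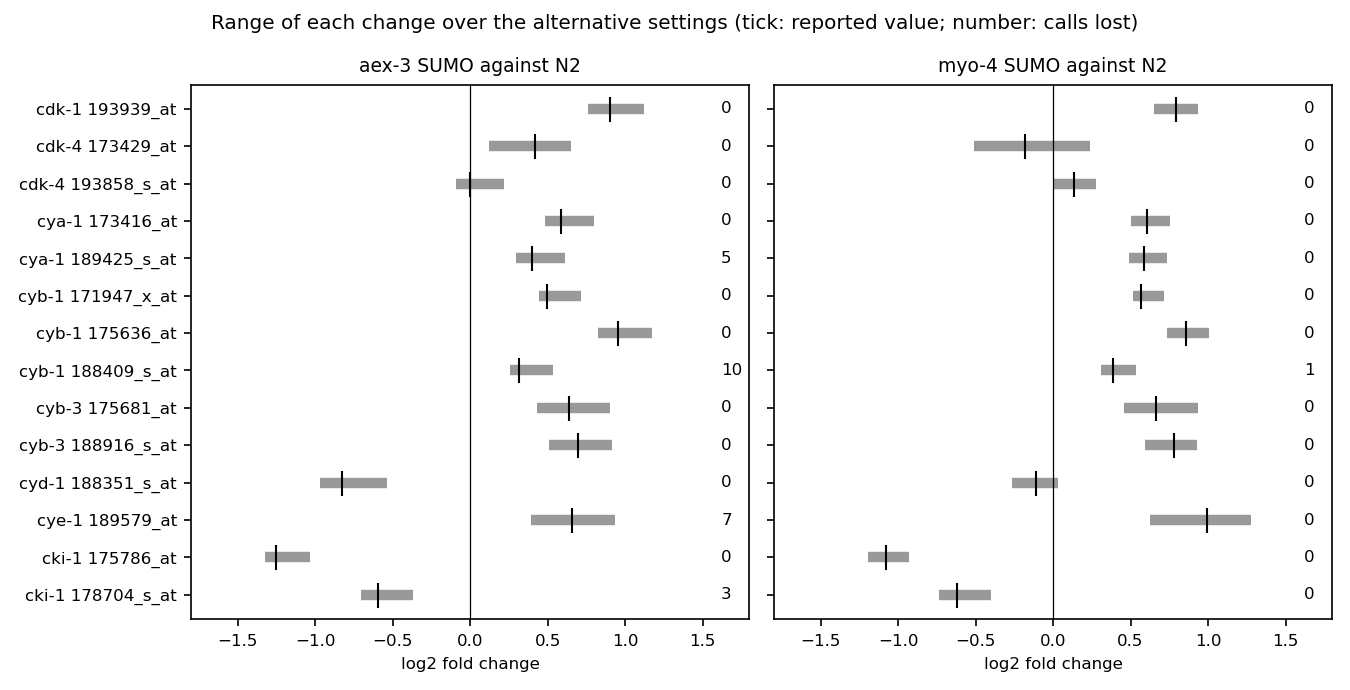
Log2 fold change against N2 of each tested probe set of the 9 genes, with the lowest and highest value over the alternative settings as a bar, the reported value as a tick and, at the right, the number of settings that lost the call. The bars of cdk-1 and cki-1 stay on 1 side of 0 in both lines, and those of the brighter cdk-4 probe set cross it.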

How the data were processed

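The deposited table gives a linear signal intensity for each probe set, already at a common trimmed mean. GCOS is the software named by the submitters' processing notes, and its version, the background step and the genome build are not given in the sources used here. The 77 control probe sets were dropped and the rest put on the scale log2(signal + 1.623), whose pseudocount, the median of the arrays' 10th percentiles, understates changes of dim genes. A probe set was tested if it exceeded the 40th percentile on 3 or more arrays, as 14204 did. limma 3.58.1 (R 4.3.3; lmFit, eBayes with an intensity trend) was fitted to all 9 arrays, with two-sided tests, p-values adjusted by Benjamini-Hochberg over all 14204, and a threshold of 0.05. The number of arrays limits the precision.

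Same-numbered arrays showed no shared shift: their deviations from the group means correlated at -0.194 to 0.0295. These values cannot show whether same-numbered populations were grown or handled together. In data simulated for aex-3 SUMO against N2 on 14204 probe sets, the fit recovered 31.3% of 67 probe sets changed 1.5-fold, 74.6% of 67 changed 2-fold and 97% of 66 changed 4-fold. No other probe sets were changed there, whereas 48.1% of the real ones were called in aex-3 SUMO. The adjusted p depends on the share of probe sets that change. The recovered shares are thus a check of the fit and do not give the recovery in the real data.

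Probe sets were named through the platform annotation, with symbols updated from RefSeq (WBcel235), and 20810 of 22548 had 1 gene. Lists use the brightest probe set per gene. All probe sets of the 9 genes are named. From each cell cycle list, genes were taken from up to 4 with the smallest p among the calls of each direction, with smo-1, aex-3 and unc-54 as checks and the 5 genes most like cdk-1 or cki-1. The genes and lists were chosen with earlier results of these data known. Alternatives were other normalizations, filters and pseudocounts, no trend, only the groups compared, a replicate block and leaving out each array. No sequences were used here, so a planned motif search was not run.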

Additional observations from a re-analysis of the deposited data

How the results depend on the processing

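Over 18 alternative settings, the higher calls among the tested cyclin, cdk and cki-1 probe sets (14, but 10 with the filter at the 60th percentile and 16 with no filter) ran from 6 to 9 in aex-3 SUMO and from 8 to 9 in myo-4 SUMO, and the lower calls from 2 to 3 in aex-3 SUMO and stayed at 2 in myo-4 SUMO. The 6 came with only the groups compared and without N2 replicate 2, N2 replicate 3, aex-3 SUMO replicate 1 or aex-3 SUMO replicate 2. The count over all probe sets between the lines, 34, was 21 without the intensity trend, 246 with only the groups compared, and 13 to 92 when 1 array was left out. With the replicate block, 6464 probe sets were called in aex-3 SUMO and 5971 in myo-4 SUMO in place of 6833 and 6300, 36 between the lines, and 8 and 9 of the 14 cyclin, cdk and cki-1 probe sets were higher. The higher call that this block lost was the middle cyb-1 probe set in aex-3 SUMO. No cyclin, cdk or cki-1 value that changed sign had a call. For cyd-1 in myo-4 SUMO they were 0.0122 under quantile normalization and 0.033 under median centring. Between the lines, median centring gave -0.0467 for the dimmer cya-1 probe set, -0.0024 for the brightest of cyb-1 and -0.0422 for the dimmer of cyb-3. Leaving out 1 array gave -0.0911 to 0.0625 for the brighter cdk-4 probe set in aex-3 SUMO, -0.0004 to 0.21 in myo-4 SUMO and -0.0008 to 0.22 between the lines, and -0.51 to 0.24 for the dimmer one in myo-4 SUMO. Between the lines it gave -0.0487 to 0.089 for the dimmer cya-1 probe set, -0.0053 to 0.13 for the middle one of cyb-1, -0.0146 to 0.0563 for the dimmer of cyb-3 and -0.085 to 0.042 for the dimmer of cki-1. The promoter gene aex-3, at 0.05 and 0.08 against N2, gave -0.16 and -0.13 with a pseudocount of 16, and -1.0015 to 0.61 and -0.96 to 0.65 when 1 array was left out, where the lowest values, without N2 replicate 1, passed the threshold (adjusted p = 0.00326 and 0.00443). Its value between the lines was -0.0499 under quantile normalization, -0.0328 under median centring and -0.0564 to 0.20 when 1 array was left out. The cause of these changes was not tested. Signals near the bottom of the arrays limit what can be read for cdk-2, cdk-4 and the dimmer cyd-1 probe set.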

Other observations

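The SD of signals was highest in N2 for 8 of the 16 probe sets of the 9 genes, or 50%, beside 61.9% of all probe sets tested. The SD of log2 values was highest in N2 for 10 of the 16 probe sets, or 62.5%, beside 61% of all probe sets tested. The promoter gene aex-3 read 1.92 on N2 replicate 1, beside 31.4 and 28.0 on the other N2 arrays and 11.17 to 16.7 on the transgenic arrays. Without that array its log2 fold change was -1.0015 in aex-3 SUMO (adjusted p = 0.00326) and -0.96 in myo-4 SUMO (adjusted p = 0.00443). unc-54, the gene behind the other promoter, read 1741 ± 409 in N2, 1061 ± 67.7 in aex-3 SUMO and 793 ± 147 in myo-4 SUMO, with log2 fold changes of -0.69 (adjusted p = 0.005) and -1.12 (adjusted p = 0.000267).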
